A study of Homo sapiens with 4 samples.

Results

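DUSP1, DUSP4, DUSP5, DUSP6, DUSP10, SPRY1, SPRY2, SPRY4, SPRED1 and SPRED2 encode inhibitors of MAP kinase signalling, most of them induced by that signalling itself. These 10 genes were taken by name from the 34755 gene symbols of the array, with all 12 of their probes, and their RNA was followed in SUM149 cells given Ricolinostat. SUM149 is a cell line from an inflammatory breast cancer, and Ricolinostat (ACY1215) inhibits histone deacetylases with a preference for HDAC6, a mainly cytoplasmic deacetylase whose best known substrate is α-tubulin. The cells were left to attach in 6-well plates for 24 hours, and RNA was taken from untreated cells and from cells kept for 3, 6 or 12 hours in 2.5 uM of the drug. Each of these 4 conditions was measured once, on a two-colour Agilent array with the sample in Cy5 and a reference, labelled as a pool of the SUM149 samples, in Cy3.

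The MAP kinase cascade runs from receptor to RAS, RAF, MEK and ERK, and ERK in turn drives transcription of the proteins that shut it off. Dual-specificity phosphatases (DUSPs) remove phosphate from the threonine and the tyrosine of the activation loop of MAP kinases. DUSP1, DUSP4 and DUSP5 are inducible enzymes of the nucleus, DUSP6 is cytoplasmic and selective for ERK, and DUSP10 acts on JNK and p38. Sprouty proteins (SPRY) and the related SPRED proteins act further up: Sprouty proteins engage adaptors below growth factor receptors, and SPRED proteins bring the RAS inhibitor neurofibromin to the membrane. RNA of these genes is often read as a gauge of ERK output in breast and other epithelial tumours.

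With 1 array per condition there was no replicate and no test, and each value below is the change of log2(Cy5/Cy3) from the untreated array (1 on this scale is 2-fold), in which a reference shared by the arrays cancels. The ratio lay below 0 on all 4 arrays in DUSP1, DUSP6 and SPRY2 and above 0 on all 4 in DUSP4, DUSP10, SPRED1 and SPRED2. A pool of these samples, read alike in both dyes, should lie within their range. With the sample in Cy5 on every array, the make-up of the reference and a difference between dyes cannot be told apart. What the reference holds is thus in doubt, and a ratio is not read on its own. No array of cells given vehicle alone was analysed here, so time in culture and drug cannot be told apart. A gene counted as measured when both its Cy5 and its Cy3 signal were flagged well above background on the 2 arrays compared, and in this sense all 10 genes were measured on all 4 arrays. Technical spread was read from 300 probes printed 9 or more times on an array, whose change had a median SD of 0.106 after 3 hours, 0.113 after 6 and 0.105 after 12. It covers printing and scanning, not cultures. In genes with 2 probes the changes of the probes differed by a median of 0.18, 0.20 and 0.20 at 3, 6 and 12 hours, and in 1 gene of 10 by more than 0.54, 0.61 and 0.57. Some areas of the untreated and the 3 hour array (3.37% and 4.54% of spots) held many defective spots and are called damaged below, against 0.186% of spots at 6 hours and 0% at 12 hours. All 11 epithelial and basal markers (EPCAM, CDH1, keratins, EGFR and others) were well above background on every array, with a median Cy5 signal between 6718 and 8933 scanner units. Of 4 luminal markers, 3 (not PGR) were well above background on every array, and the median of the 4 lay between 190.75 and 268 units. Markers of other cells were dimmer but not absent. All 4 leukocyte and all 3 endothelial markers and 3 or 4 of 4 fibroblast markers were also well above background, with medians between 86 and 208.5 units, and the brightest leukocyte marker read 770 to 1150.5 units against 537 to 975.5 for the dimmest epithelial marker. Their part in the results was not tested.

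Across the time course the members did not all move alike. Their change was above 0 in 7, 7 and 8 of 10 at 3, 6 and 12 hours. Over all genes it was above 0 in 10678 of 20766, 10733 of 20342 and 10748 of 20479. The member counts hold SPRY1 on its damaged spot at 3 hours, and some changes smaller than the technical SD. In RNA of a whole culture, a lower level in every cell and fewer cells that hold the RNA cannot be told apart. DUSP1 and DUSP5 were at least 2-fold higher, SPRED2 came close to that, SPRED1 and DUSP10 were higher by a smaller and steady amount, SPRY2 was lower throughout, and DUSP4 and DUSP6 were lower at 3 hours and higher at 12 hours. At 3 hours 1 of 10 members was at least 2-fold higher, where 1.69% of all genes measured were. At 6 hours the count was 2 of 10 against 2.81% of all genes, and at 12 hours 2 of 10 against 2.34%. No member was 2-fold lower at any time, where 0.366%, 0.939% and 1.12% of all genes were at 3, 6 and 12 hours. The median change of the members was 0.47, 0.36 and 0.47, beside 0.01, 0.02 and 0.01 over all 20766, 20342 and 20479 genes measured. Changes of at least 2 technical SDs in either direction were found for 10, 6 and 8 of the 10 members, as for 37.9%, 43.6% and 45% of all genes. The 10 at 3 hours include SPRY1, read from a damaged spot. At 1.5-fold, 4 members were higher and 1 lower at 3 hours, beside 6.87% and 1.96% of all genes, and without damaged spots 2 were higher (DUSP5 and SPRED2). At 6 hours 3 were higher and 1 lower, beside 9.4% and 4.42%, and at 12 hours 4 were higher and 0 lower, beside 8.1% and 5.13%. No member was 4-fold higher, where 0.0722%, 0.123% and 0.103% of all genes were.

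**Figure D1:**
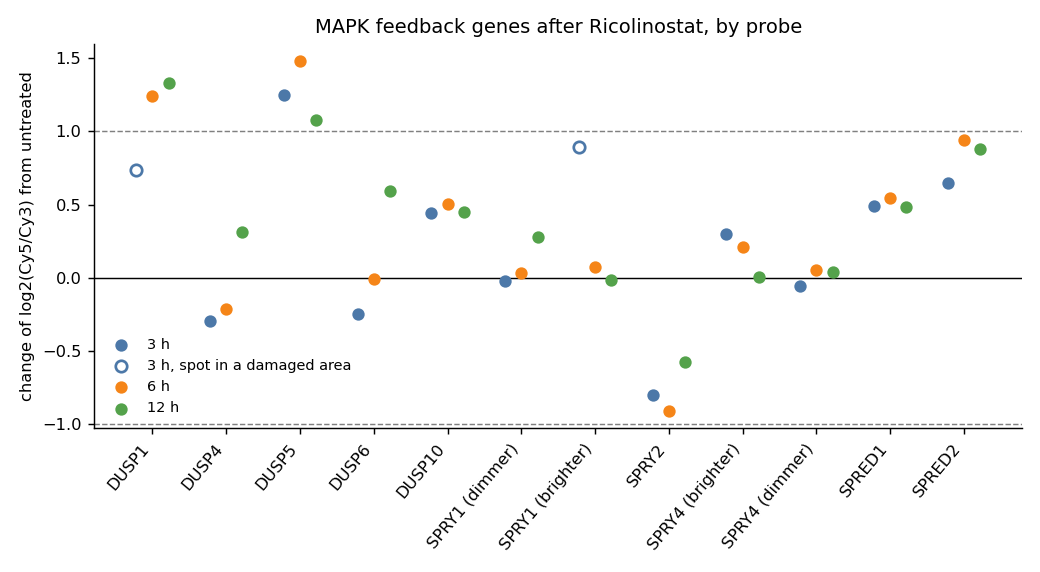
Change of log2(Cy5/Cy3) from the untreated array (vertical axis) for the 12 probes of the 10 genes (horizontal axis) at 3, 6 and 12 hours, 1 array each and so without error bars. Dashed lines mark 2-fold, and open symbols hold spots in a damaged area of the 3 hour array. DUSP1 at 1.24 and 1.33 and DUSP5 at 1.25, 1.48 and 1.08 lie above the upper line, and SPRY2 at -0.80, -0.91 and -0.58 lies lowest.

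DUSP1 (MKP-1), an immediate-early gene of mitogen and stress signalling, dephosphorylates p38 and JNK as well as ERK. It was read by 1 probe printed in 10 spots, so it is the member whose technical spread is known best. The log2 ratio averaged -1.51 ± 0.097 (SD over 10 spots) in untreated cells, -0.77 ± 0.49 after 3 hours, -0.27 ± 0.094 after 6 and -0.18 ± 0.070 after 12. The spots of the untreated array ran from -1.68 to -1.41. Those at 6 hours ran from -0.38 to -0.11 and those at 12 hours from -0.25 to -0.02. Spots of 1 array share 1 culture, and how often other repeated probes stood this far apart was not tested. Relative to untreated cells DUSP1 was higher by 1.24 ± 0.10 at 6 hours (2.36-fold) and by 1.33 ± 0.078 at 12 hours (2.51-fold), where the SD is over 10 spots of single arrays. Of all genes measured, 278 of 20342 at 6 hours and 181 of 20479 at 12 hours were higher by as much or more.

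The wide spread at 3 hours came from 2 spots inside a damaged area. Their changes were 1.55 and 1.58, and their Cy3 signals were 239 and 272 units, against 677 to 1766.5 units in the other 8 spots. Those 8 spots gave a change of 0.53 ± 0.093 (SD), from 0.42 to 0.67. The value over all 10 spots, 0.74 (1.67-fold), therefore overstates what the undamaged spots show at 3 hours. The Cy5 signal of the sample, before any normalization, averaged 679 units in untreated cells, 1333 units at 6 hours and 1314 units at 12 hours, while the Cy3 signal of the reference was 1483, 1346 and 1402 units. The difference thus lay in the sample channel.

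**Figure D2:**
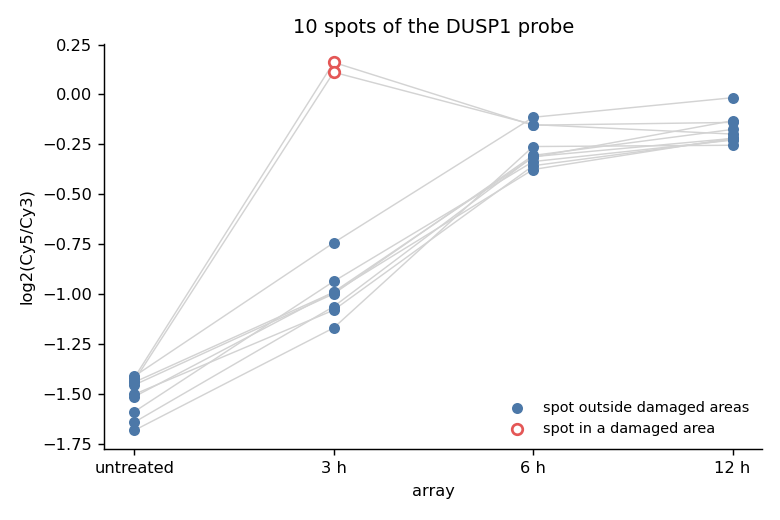
Log2(Cy5/Cy3) of each of the 10 spots of the DUSP1 probe (vertical axis) on the 4 arrays (horizontal axis), where grey lines join the same position on the arrays and open red symbols are the 2 spots in a damaged area at 3 hours. The spots outside that area lie at -1.17 to -0.74 at 3 hours, between the untreated array and the 6 hour array.

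Bases upstream of the transcription start are shown for DUSP1, DUSP6 and SPRY2, because their ratios took 3 different courses: higher at every time, higher at 12 hours only, and lower at every time. The sequences are 250 bases each from RefSeq (GRCh38.p14, minus strand of the chromosome, written 5′ to 3′ towards the start site): chr5:172771196-172771445 for DUSP1, chr12:89352502-89352751 for DUSP6, and chr13:80341127-80341376 for SPRY2, the most upstream of its 3 starts. Capitals mark matches, on either strand, to the cAMP response element (CRE, TGACGTCA), its half-site (TGACG), the AP-1 site (TGANTCA), an ETS site (CCGGAAG), the TATA box (TATAAA), the E-box (CACGTG) or the CArG box. A full CRE holds 2 half-sites, 1 on each strand. Matches to the GC box (GGGCGG) were counted and left in lower case.
DUSP1: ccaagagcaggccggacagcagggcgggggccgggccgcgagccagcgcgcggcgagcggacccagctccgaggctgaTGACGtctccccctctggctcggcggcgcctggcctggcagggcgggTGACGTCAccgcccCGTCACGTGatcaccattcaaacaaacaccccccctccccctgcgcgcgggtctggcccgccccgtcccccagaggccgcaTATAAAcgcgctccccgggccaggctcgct
DUSP6: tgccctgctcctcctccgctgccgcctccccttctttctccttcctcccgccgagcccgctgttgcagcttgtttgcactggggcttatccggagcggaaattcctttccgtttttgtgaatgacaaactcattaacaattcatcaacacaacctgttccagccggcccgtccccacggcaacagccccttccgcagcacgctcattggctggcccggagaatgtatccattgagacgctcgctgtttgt
SPRY2: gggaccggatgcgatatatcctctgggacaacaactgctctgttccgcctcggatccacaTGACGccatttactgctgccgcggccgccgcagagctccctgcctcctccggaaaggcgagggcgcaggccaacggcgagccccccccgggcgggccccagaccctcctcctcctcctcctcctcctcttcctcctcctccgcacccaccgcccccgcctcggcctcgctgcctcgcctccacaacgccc

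The DUSP1 window held a CRE at -125 to -118 from the start, half-sites at -172 to -168 and at -111 to -107, an E-box at -108 to -103 that overlaps the latter, and a TATA box at -30 to -25. It also held GC boxes at -229 to -224, -132 to -127, -117 to -112 and -54 to -49. A full CRE was found in 1.65% of the 35116 start sites of the table and an E-box in 6.34%. The SPRY2 window held 1 half-site at -190 to -186, a match found at 21.2% of all starts, and 2 GC boxes. None of the motifs was found in the DUSP6 window, which says only that these letters are not in these 250 bases. GC content was 74.4%, 57.2% and 70.4% in the DUSP1, DUSP6 and SPRY2 windows. The table held 13 starts of 8 members, and DUSP4 and DUSP5 were not among them. Over the 13 starts, a half-site lay at 3 (DUSP1, SPRY2 and SPRY4), an ETS site at 1 (SPRY1, beside 8.52% of all starts), a TATA box at 2 (DUSP1 and SPRED2, 10.7%), and an AP-1 site or a CArG box at 0 (6.57% and 1.16%). A GC box lay at 7 of the 13 starts, beside 42.6% of all. These are matches of letters, and no binding was measured.

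DUSP5 is a nuclear phosphatase that binds ERK and holds it in the nucleus. Its log2 ratio was -1.13 in untreated cells, 0.12 after 3 hours, 0.35 after 6 and -0.05 after 12. The untreated array was thus the lowest, and the 3 treated arrays stood apart from it by more than they differed among themselves. The change was 1.25, 1.48 and 1.08 at 3, 6 and 12 hours (2.38-fold, 2.79-fold and 2.11-fold), and 154 of 20766 genes were higher by as much or more at 3 hours. It was the only member past 2-fold at 3 hours. With median centring its change at 12 hours was 0.94, but relative to the median of all genes its lowest value over the ways of processing was 1.06. Its single spot read 124 Cy5 units in untreated cells and 485, 449 and 327.5 units at 3, 6 and 12 hours. Its reference signal was also higher on the treated arrays, by 0.33, 0.21 and 0.28 on the log2 scale after normalization, so the Cy5 channel alone gave larger changes of 1.59, 1.73 and 1.42. With no repeated spot and no other probe for DUSP5, its technical error rests on the spread of other probes.

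DUSP4 (MKP-2), a nuclear relative of DUSP1, showed small changes that turned sign. Its log2 ratio was 0.67 in untreated cells, 0.38 after 3 hours, 0.46 after 6 and 0.99 after 12. The changes were -0.29, -0.21 and 0.32, all under the distance between probes seen in 1 gene of 10. Between 6 and 12 hours the ratio differed by 0.53. Over the ways of processing tried, the change at 12 hours ran from -0.02 to 0.33. The lowest came with median centring of the arrays in place of loess, which put the median of all genes at -0.16, and relative to the median of all genes the lowest was 0.14.

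DUSP6 (MKP-3), the cytoplasmic ERK phosphatase and a common reporter of ERK activity, had a log2 ratio of -0.66 in untreated cells, -0.90 after 3 hours, -0.66 after 6 and -0.06 after 12. The 12 hour array was the highest and the 3 hour array the lowest. Relative to untreated cells the change was -0.24 after 3 hours, -0.01 after 6 and 0.59 after 12 (1.51-fold), and from 6 to 12 hours it was 0.60. The raw Cy5 signal gave another picture at 12 hours, with 2082.5 units in untreated cells, 1837 after 3 hours, 1487 after 6 and 1991 after 12. The reference was lower by 0.27 at 12 hours, and the Cy5 channel alone gave a change of 0.27 there. The size therefore depended on the use of the reference, and without the reference the sign depended on normalization between arrays.

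DUSP10 (MKP-5), a phosphatase of JNK and p38, was higher by nearly the same amount on all treated arrays. Its log2 ratio was 1.70 in untreated cells and 2.14, 2.20 and 2.15 at 3, 6 and 12 hours. The changes were 0.44, 0.50 and 0.45 (1.36-fold, 1.42-fold and 1.36-fold), about 4 technical SDs, and between 10.5% and 12.3% of all genes measured were higher by as much or more. All 3 were under the distance between probes seen in 1 gene of 10, and DUSP10 has 1 probe with 1 spot. The reference signal of this probe moved by at most 0.09.

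**Figure D3:**
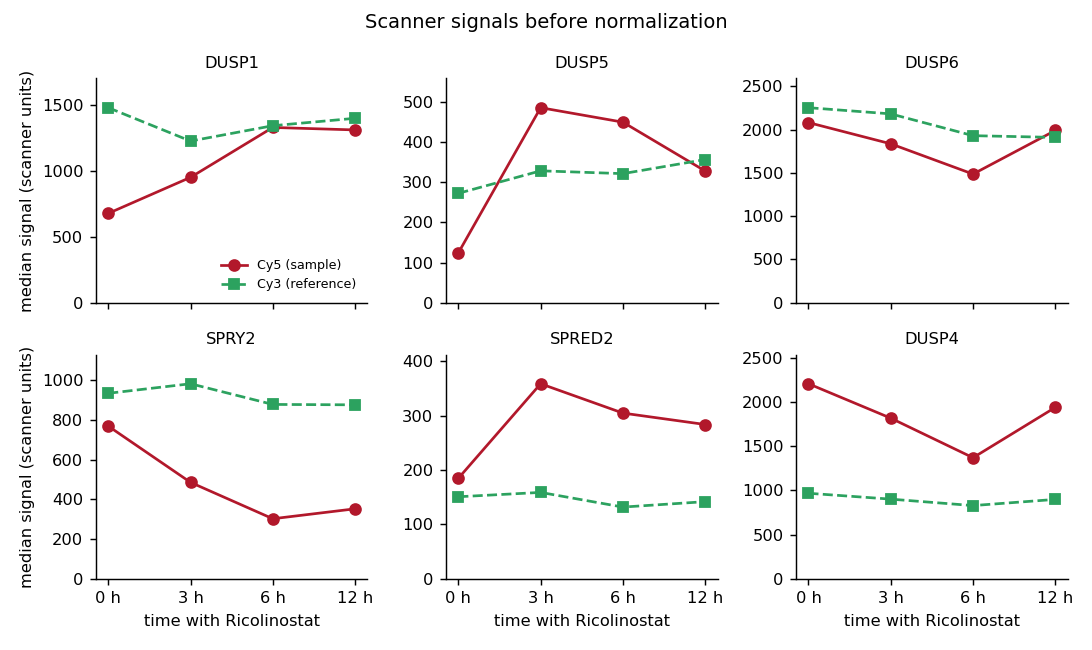
Median scanner signal of the spots before background correction (vertical axes from 0, each gene on its own scale) for the sample (Cy5, red circles) and the reference (Cy3, green squares) against time with Ricolinostat, for 6 members, 1 array per point and DUSP1 averaged over its 10 spots. In DUSP1 and DUSP5 the sample signal climbs towards or past the reference, in SPRY2 it drops from 768 to 302 units at 6 hours, and in DUSP4 and DUSP6 it is lowest at 6 hours.

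Among the Sprouty genes, SPRY2 was the only one with a lower ratio on every treated array in both this processing and the Cy5 channel alone. SPRY2 binds the ubiquitin ligase CBL and the adaptor GRB2 and dampens RAS activation below receptors. Its log2 ratio was -0.67 in untreated cells, -1.47 after 3 hours, -1.58 after 6 and -1.24 after 12, so that the untreated array stood above all treated arrays. The changes were -0.80, -0.91 and -0.58 (1.74-fold, 1.88-fold and 1.49-fold lower). At 3 hours 163 of 20766 genes were lower by as much or more. The Cy5 signal was 768, 485, 302 and 352 units in time order, while the reference stayed between 875 and 981 units. SPRY2 did not reach 2-fold lower here, yet at 6 hours it did so in 5 other ways of processing, among them the Cy5 channel alone (-1.13).

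SPRY1, which inhibits RAS and RAF activation, was read by 2 probes designed on different transcript variants, and these did not give the same course. The brighter probe had a log2 ratio of -0.43 in untreated cells, 0.46 after 3 hours, -0.36 after 6 and -0.45 after 12. Its high 3 hour value came from a spot in a damaged area, where the reference read 231.5 units against 775.5 to 979.5 units on the other arrays. The change at 3 hours was 0.89 as a ratio and -0.83 in the Cy5 channel alone, so no direction can be given for this probe at 3 hours. At 6 and 12 hours its change was 0.07 and -0.02. The dimmer probe read 50 to 63 Cy5 units and changed by -0.02, 0.03 and 0.28.

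SPRY4, an inhibitor of growth factor signalling to ERK, differed between its probes. Its brighter probe changed by 0.30, 0.21 and 0.01 at 3, 6 and 12 hours and its dimmer probe by -0.05, 0.05 and 0.04. The probes differed by more at 3 hours than at 12 hours. With 38 to 49 units in both channels, the dimmer probe lay close to the median spot of an array.

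Both SPRED genes had a higher ratio on all treated arrays. SPRED proteins carry an EVH1 domain and a Sprouty domain, and inactivating mutations of SPRED1 cause Legius syndrome. SPRED2 had a log2 ratio of 0.09 in untreated cells and 0.73, 1.03 and 0.96 at 3, 6 and 12 hours. Its changes were 0.64, 0.94 and 0.88 (1.56-fold, 1.92-fold and 1.84-fold), and 3.37% of all genes at 6 hours and 3.34% at 12 hours were higher by as much or more. The Cy5 channel alone gave 0.72, 0.74 and 0.75, and the raw sample signal was 185, 359, 305 and 284 units in time order. SPRED2 did not reach 2-fold here. At 6 and 12 hours it did so in some other ways of processing, among them the authors' table (1.06 and 1.03). SPRED1 had a log2 ratio of 0.77 in untreated cells and 1.26, 1.31 and 1.25 at 3, 6 and 12 hours. Its changes of 0.49, 0.55 and 0.48 were level over time. They shrank to 0.26, 0.24 and 0.18 in the Cy5 channel alone, because the reference signal of this probe was lower on the treated arrays by 0.16, 0.27 and 0.30. The raw Cy5 signal of SPRED1 was 437, 578.5, 472 and 416.5 units in time order. Without the reference its sign at 12 hours thus depended on normalization between arrays.

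**Figure D4:**
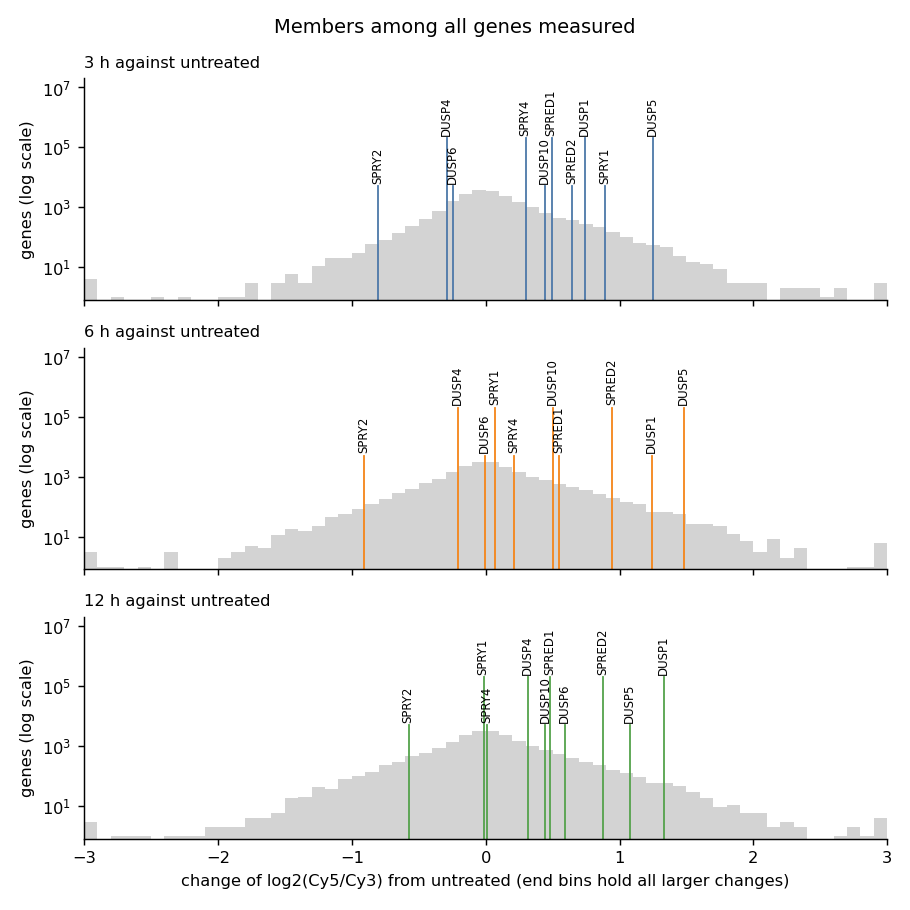
Number of genes (vertical axes, log scale) by change of log2(Cy5/Cy3) from untreated in bins of 0.1 (horizontal axis), for all 20766, 20342 and 20479 genes measured at 3, 6 and 12 hours. Coloured lines mark the 10 members, with heights set for the labels. DUSP5 at 3 and 6 hours and DUSP1 at 12 hours are farthest to the right and SPRY2 farthest to the left at each time.

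The close relatives outside the chosen genes moved little. Of the other MAP kinase phosphatases DUSP2, DUSP7, DUSP8, DUSP9 and DUSP16, 4 were measured, with changes from -0.31 to 0.16 over all times. None passed 2-fold, where at most 2.81% of all genes were higher and 1.12% lower at any time. DUSP2, the inducible phosphatase of immune cells, was at -0.15, 0.07 and 0.15 at 3, 6 and 12 hours. DUSP8 was at -0.17, -0.15 and -0.11, although its 2 other measured probes averaged 0.16 at 12 hours. DUSP9 was at -0.31, -0.26 and -0.16, and the JNK phosphatase DUSP16 at -0.21, -0.07 and 0.16. DUSP7 was well above background on 1 array and SPRED3 on none, so neither has a value. SPRY3 was at 0.14, 0.17 and 0.31. The median of the 4 phosphatases was -0.19, -0.11 and 0.02, below that of the members at each time, with no test of the difference.

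Other genes whose transcription ERK drives went both ways. Of 11 such genes, 1 was at least 2-fold higher at 6 and 12 hours, beside 2.81% and 2.34% of all genes. At 6 hours 1 was at least 2-fold lower, beside 0.939% of all genes. The median of the 11 was -0.09, 0.14 and 0.02. The ETS factor ETV1 was higher by 0.61, 1.29 and 1.51, although its other measured probe was at 0.36 at 12 hours, and its relative ETV5 by 0.53, 0.84 and 0.81. The third member of that subfamily, ETV4, was at -0.48, -0.49 and -0.45. MYC was at -0.90, -1.07 and -0.35, the AP-1 subunit FOSL1 at -0.80, -0.99 and -0.64, and cyclin D1 (CCND1) at -0.48, -0.83 and -0.69. The immediate-early factor EGR1 changed sign, with 0.36, 0.34 and -0.60. The receptor EPHA4 was at 0.59, 0.77 and 0.47 and IER3 at 0.08, 0.29 and 0.48, with the other measured probe of IER3 at 0.22 at 12 hours. PHLDA1 (-0.09, 0.14 and 0.02) and EPHA2 (-0.11, 0.12 and 0.13) moved least.

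Upstream of the feedback genes, 22 of 23 genes of the ERK cascade were measured, with a median change of 0.09, 0.11 and 0.12 at 3, 6 and 12 hours. In the JNK and p38 cascade, on which DUSP1 and DUSP10 act, 14 of 16 genes were measured with a median of 0.15, 0.15 and 0.22. MAP2K3, which phosphorylates p38, was at 0.82, 1.16 and 0.90 (its 2 other measured probes averaged 0.48 at 12 hours), and MAP2K7, which phosphorylates JNK, at -0.89, -1.20 and -0.90.

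All 9 AP-1 subunits were measured, with a median of -0.13, 0.08 and 0.22. JUN was higher by 1.08, 1.04 and 0.98, FOS by 0.81, 1.09 and 0.43, and ATF3, a stress-induced subunit, by 0.69, 1.46 and 1.66. The 3 other probes of ATF3 averaged 0.22 at 12 hours. Of 7 partners of Sprouty and SPRED proteins, CBL and TESK1 passed 2-fold at 3 hours and CBL at 6 hours, beside 1.69% and 2.81% of all genes. CBL was at 1.04, 1.09 and 0.79, where the reference signal was lower by 0.72 at 3 hours, and the kinase TESK1 at 1.60, 0.83 and 0.49, where the 3 hour spot lay in a damaged area with a reference lower by 1.76. HDAC6 itself, the target of the drug, was at -0.41, -0.25 and -0.51, with its other measured probe at -0.20 at 12 hours.

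The course of a member between the treated arrays does not involve the untreated array, on which all changes above rest. From 3 to 12 hours DUSP6 was higher by 0.84, DUSP4 by 0.61 and DUSP1 by 0.59. With the damaged spots at 3 hours left out, DUSP1 was higher by 0.82. DUSP5 was lower by 0.17 over the same span. SPRY2 was higher by 0.23 as a ratio, but changed by -0.07 in the Cy5 channel alone, where the reference was lower by 0.26. DUSP10 and SPRED1 differed by 0.00 and -0.01, less than the technical SD. From 6 to 12 hours DUSP5 changed by -0.40 and DUSP1 by 0.09, so the former was past its highest value while the latter was level.

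**Figure D5:**
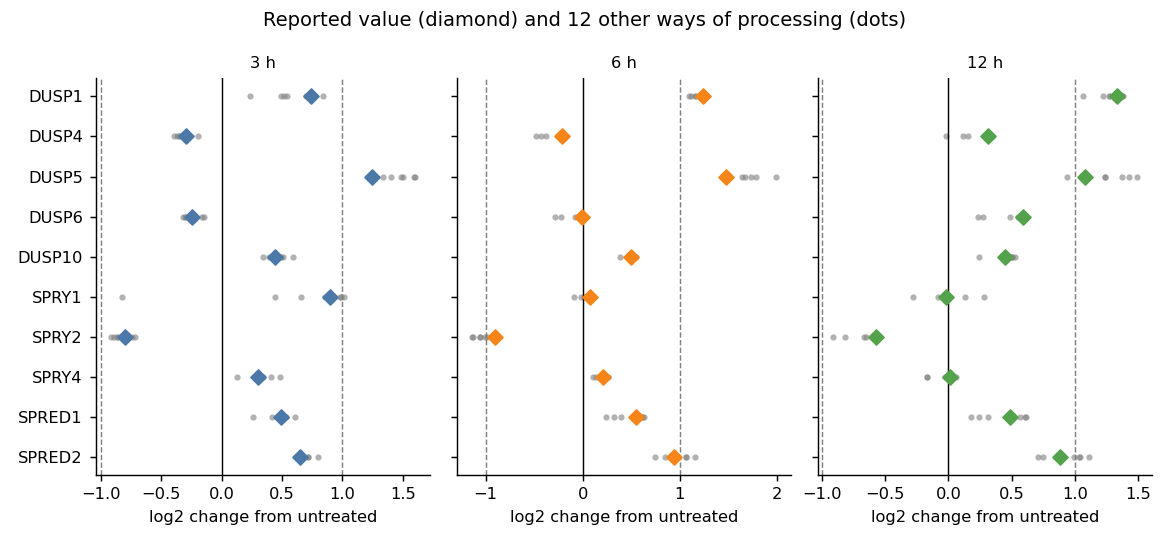
Log2 change from untreated (horizontal axes) of the 10 genes (vertical axis) at 3, 6 and 12 hours, as reported (diamonds) and under the 12 other ways of processing (grey dots). Dashed lines mark 2-fold. DUSP1 stays between 1.06 and 1.38 at 12 hours and SPRY2 between -0.92 and -0.72 at 3 hours, whereas SPRY1 spreads from -0.83 to 1.01 at 3 hours.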

How the data were processed

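RNA of SUM149 cells was measured on 4 two-colour arrays of 1 slide, which were scanned together. Per array, the authors deposited spot intensity and local background, flags for outliers and for signals above background, and a log10 ratio of Cy5 over Cy3 made by Agilent's Feature Extraction software. A deposited table holds log2 ratios normalized by the authors, whose method is not given in the sources used here and which supplied the gene symbols.

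Here the median pixel intensity of each spot was corrected with normexp (offset 50), control spots and flagged outliers were left out, and arrays were normalized by loess and Aquantile in limma 3.58.1 (R 4.3.3). Values were averaged over repeated spots, and where a gene had several probes the brightest in Cy3, on average over arrays, was taken. Tables were made in Python 3.11.15 with numpy 2.4.6 and pandas 2.3.3. Damaged areas were found in windows of 13 by 7 spots, where 10% or more were outliers or lay over 2-fold away from the 4-array median in Cy3. With 1 array per time point no test was made, and genes were counted at a log2 change of 1 in either direction. The members and the gene lists were chosen with earlier results of these data known. All members, all genes of the nearest lists, and in other lists the genes past 2-fold were named, except in the ERK cascade, where results of single genes are not reported here. Precision is limited by the number of arrays. The normalization was tested on simulated data made from the untreated array with added noise. These held no difference between arrays in dye or damage, so the test does not bear on such differences. Alternatives concerned the background, the normalization, the Cy5 channel alone, the authors' table, the probe of a gene, the filter on dim probes, damaged areas, the threshold and, chosen after seeing the data, the median over spots. Promoter sequences are those of RefSeq (GRCh38.p14) and were matched by symbol. No value of the paper was used.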

Additional observations from a re-analysis of the deposited data

Results flagged for a closer look

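In DUSP4 and DUSP6 the change from untreated had opposite signs at 3 and at 12 hours. The change of DUSP4 went from -0.292 to 0.316 between these times, and that of DUSP6 from -0.244 to 0.593. With 1 array per time point the difference between the time points was not tested. Both genes have 1 probe with 1 spot, and neither spot lay in a damaged area. The brighter SPRY1 probe also turned sign, from 0.894 to -0.0157, but its 3 hour spot lay in a damaged area.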

How the results depend on the processing

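Over 12 other ways of processing, 280 of 359 changes of single members moved by less than the technical spread and 79 moved by more. The sign turned in 9: SPRY1 at 3 hours (-0.83 in the Cy5 channel alone), SPRY1 at 6 and 12 hours, SPRY4 at 12 hours and DUSP4 at 12 hours. None of the 9 was at least 2-fold as reported. Taken relative to the median of all genes, 7 of them still had the sign opposite to the reported change. The exceptions were DUSP4 and SPRY1 at 6 hours in the authors' table. For SPRY4 at 12 hours the reported change was itself -0.005 relative to that median, so its sign on that scale did not turn. A count was taken to move when it went to or from 0 or changed by a factor over 1.5. The counts and medians that moved are these, and a rise from 2 to 3 members at least 2-fold higher is not among them. That rise came at 6 hours with a normexp offset of 1, without background subtraction and in the authors' table. At 12 hours it came with a normexp offset of 1, with Feature Extraction's processed signals and in the authors' table. The added member was SPRED2 each time. With median centring in place of loess the median of the members was 0.60 at 3 hours and 0.24 at 12 hours, 1 member was at least 2-fold higher at 12 hours (DUSP1) and 1 was 2-fold lower at 6 hours (SPRY2). Median centring also put the median of all genes at -0.16 at 12 hours, and DUSP5, at 0.94 there, stayed past 2-fold relative to it. In the Cy5 channel alone the median of the members was 0.24 at 3 hours and 0.27 at 12 hours. The authors' normalized table put 2 members at least 2-fold higher at 3 hours, the added one being SPRY1 on its damaged spot. SPRY2 was also the 1 member at least 2-fold lower at 6 hours with a normexp offset of 1, with Feature Extraction's processed signals, in the Cy5 channel alone and in the authors' table. At 1.5-fold, 4 members were higher and 1 lower at 3 hours, 1 was lower at 6 hours and 4 were higher at 12 hours. At 4-fold, 0 members were higher at 3, 6 or 12 hours. With damaged areas left out, DUSP1 was at 0.51 at 3 hours, the brighter SPRY1 probe had no value at 3 hours, and no 2-fold count moved. At 1.5-fold without those areas, chosen after seeing the data, 2 members were higher and 1 lower at 3 hours, 1 was lower at 6 hours and 4 were higher at 12 hours. What caused the other shifts was not examined. No paired analysis was possible because replicates were lacking, and for the same reason no array could be left out. Single cultures, signals close to background for the dimmer SPRY4 and SPRY1 probes, and 1 spot per probe outside DUSP1 limit these values.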
